A study of Homo sapiens
Rattus norvegicus and Homo sapiens with 10 samples.

Results

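The 40 genes described here act in mitosis, and all 40 were found by symbol in a table of 62754 genes from U251N xenografts. They encode cyclin B and its kinase, mitotic kinases, the spindle assembly checkpoint, the chromosomal passenger complex, kinetochore proteins, kinesins, proteins of the spindle and of cytokinesis, regulators of anaphase, and the proliferation markers MKI67 and TOP2A with the transcription factor FOXM1. U251N is an established human glioblastoma cell line, implanted here into the brains of adult female RNU/RNU rats, an athymic strain that lacks the T cells which would reject human cells. The groups were 3 recurrent tumours (post-LITT), 3 primary tumours that were not ablated (pre-LITT), 3 control brains described as tumour-free, of which 1 was a failed graft and the other two were procedural, and 1 dish-grown reference of U251 cells. LITT, laser interstitial thermal therapy, ablates tissue with heat from a laser probe and was guided here by diffusion-weighted imaging until the ablation reached the tumour margins. No gene was altered in any group, and all tumours came from the same line. Replicate numbers follow record order and pair no samples. The labels do not say that each tumour came from its own animal, so the p-values measure only the spread between these libraries.

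Cells enter mitosis when cyclin B activates CDK1, and leave it when the anaphase-promoting complex (APC/C), bound to CDC20, marks cyclin B and securin for destruction. Kinetochores tie chromosomes to spindle microtubules, and the spindle assembly checkpoint holds the APC/C back until every kinetochore is attached. The transcripts of most of these proteins accumulate in G2 and M under the DREAM and MuvB complexes, B-MYB and FOXM1, so in bulk RNA their summed level is widely read as a mark of dividing cells, and glioblastomas hold many such cells. In bulk tissue, more dividing human cells and more of a transcript per cell cannot be told apart.

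Total estimated counts ran from 20321590 to 25299612 in the recurrent tumours, from 25316552 to 39714714 in the primary tumours and from 1358753 to 4158124 in the controls, with 65058642 in the culture. Per the labels, graft reads made up 29.44% to 42.67% of the reads in recurrent tumours, 42.52% to 64.4% in primary tumours, and 0.33%, 0.55% and 4.9% in control replicates 1, 2 and 3. All 8 markers of the glioma line, among them VIM, NES and SOX2, passed the filter on low counts in the tumours and summed to 7683 to 8079.6 CPM in recurrent and 8569 to 9239 CPM in primary tumours, where CPM is a gene's count scaled to the library's TMM-adjusted total. Of these 8, 3 had positive and 5 negative log2 fold changes of recurrent over primary. An unadjusted edgeR p under 0.05 was reached by 3 of the negative and 0 of the positive ones, and 0 were called. The smallest p were those of GFAP, the astrocyte filament, at 302, 275 and 336 CPM in recurrent and 447, 575 and 581 CPM in primary tumours (log2 fold change -0.81, SE 0.16; edgeR adjusted p = 0.222), and FABP7, a fatty acid binding protein of radial glia, at 232, 209 and 225 CPM in recurrent and 318, 726 and 369 CPM in primary tumours (-1.08, SE 0.27; edgeR adjusted p = 0.340). Of 6 microglia and macrophage markers, AIF1, CX3CR1, P2RY12 and PTPRC were at 0 in all 6 tumours, and the list summed to 24.2 to 26.8 CPM in recurrent and 22.0 to 27.8 CPM in primary tumours. The 6 neuron markers summed to 769 to 1047 CPM in recurrent and 853 to 1398 CPM in primary tumours, the 5 oligodendrocyte markers to 8.61 to 21.2 CPM in recurrent and 16.8 to 18.1 CPM in primary tumours, and the 6 endothelial markers to 12.4 to 14.3 CPM in recurrent and 9.29 to 18.4 CPM in primary tumours. The culture, grown without host tissue, also had 1485 counts of the microglia and macrophage list and 34790 of the neuron list. It had 111 of the oligodendrocyte list and 571 of the endothelial list, so these sums do not measure host cells alone. The part of these markers in the results was not tested. Control replicate 3, also described as tumour-free brain, had the highest graft percentage of the controls and counts of all 40 mitotic genes. Their summed share lay inside the range of the tumours, as described with the controls below, and the cause was not tested.

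The 40 genes took a larger part of the counts in each recurrent tumour than in any primary tumour. The shares are not adjusted for transcript length, and longer transcripts had the higher fold changes, as described below. Outside structural small RNAs, the 40 genes summed to 0.655%, 0.754% and 0.742% of the counts in recurrent replicates 1, 2 and 3, against 0.580%, 0.543% and 0.603% in primary replicates 1, 2 and 3. MKI67 alone made up 20.1% to 21.6% of that sum in recurrent and 10.7% to 20.2% in primary tumours. Without MKI67 the sums were still apart, at 0.514% to 0.593% in recurrent and 0.475% to 0.484% in primary tumours. Gene by gene the differences were small: 31 of the 40 genes had a positive log2 fold change of recurrent over primary, where 49.1% of all 15928 tested genes did. The median over the 40 was 0.16, against -0.01 over all tested genes, and single genes ran from -0.19 to 0.65.

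**Figure D1:**
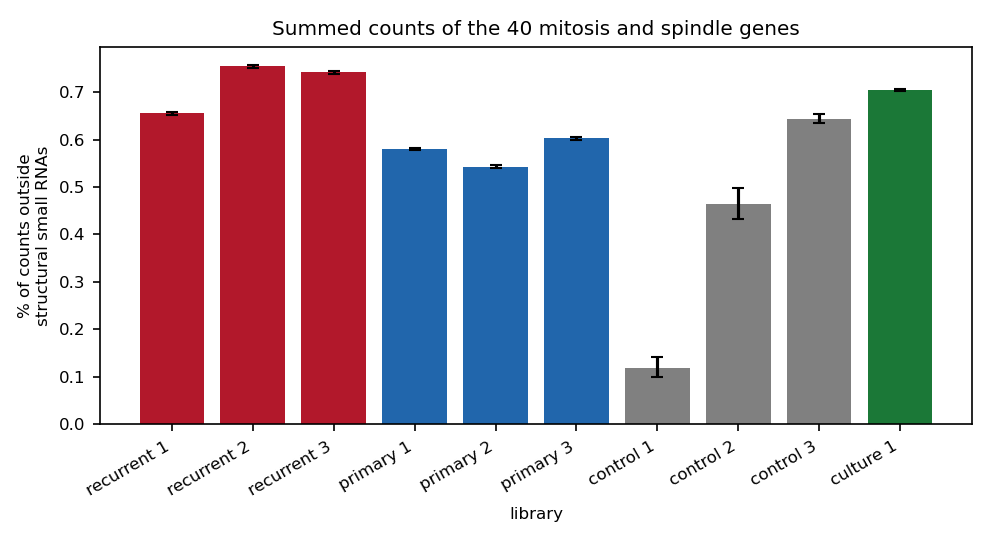
Summed counts of the 40 mitosis and spindle genes in each of the 10 libraries, as a percentage of the counts outside structural small RNAs. Bars give the share and whiskers its Wilson 95% interval, which covers counting error only. The 3 recurrent tumours (0.655% to 0.754%) lie above the 3 primary tumours (0.543% to 0.603%), and control replicate 3 (0.643%) lies among the tumours.

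None of the 40 genes passed the test of recurrent against primary tumours in edgeR's quasi-likelihood test (adjusted p from 0.454 to 0.986), where 0% of all tested genes passed as higher and 0.00628% as lower. DESeq2 and limma-voom also called 0 of the 40, although DESeq2 called 0.735% of all tested genes. At an unadjusted p under 0.05, edgeR had 11 of the 40 higher and 0 lower, against 5.08% of all tested genes higher and 4.20% lower. DESeq2 had 12 higher and limma-voom 11 at that level. In 14 of the 40, every recurrent tumour lay above every primary tumour, against 7.94% of all tested genes. None of the 40 had every recurrent tumour below every primary tumour, against 7.42%. The 11 became 3 when recurrent replicate 2 was left out, 5 when recurrent replicate 3 was, and 7 when primary replicate 1 was. A covariate for the prefix of the library names, which leaves recurrent replicate 1 alone against the primary tumours, gave a count of 0 and a median of 0.09. Under that covariate the log2 fold changes of BUB1B, KIF23, TOP2A, TPX2, ANLN and NUSAP1 were 0.24, 0.12, 0.14, 0.12, 0.10 and 0.09.

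**Figure D2:**
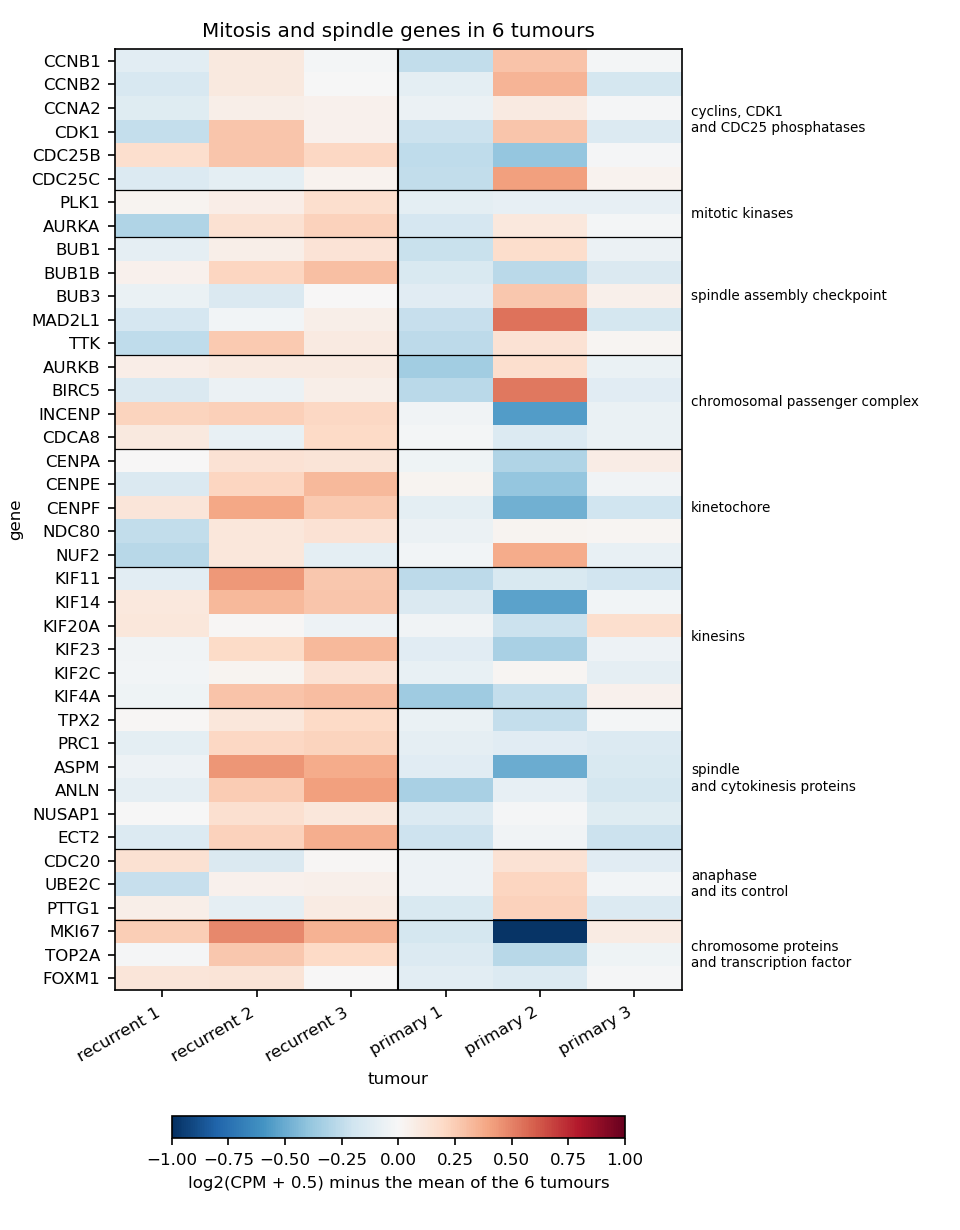
Deviation of each gene in each tumour from its mean over the 6 tumours, on the log2(CPM + 0.5) scale, with genes grouped by role and recurrent tumours on the left. Recurrent replicates 2 and 3 are mostly red, recurrent replicate 1 is paler, and primary replicate 2 holds both the deepest blue (MKI67) and the deepest red cells (MAD2L1, BIRC5).

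MKI67, the Ki-67 protein that coats mitotic chromosomes and is the routine pathology marker of dividing cells (ENSG00000148773.14, chromosome 10, 128096659 to 128126385, minus strand; all coordinates are GRCh38 from GENCODE 29), had the largest fold change of the 40. It stood at 1252, 1470.5 and 1339 CPM in recurrent replicates 1, 2 and 3, against 936, 535 and 1117 CPM in primary replicates 1, 2 and 3. All recurrent tumours were above all primary tumours, and primary replicate 2 was far below the other two. The log2 fold change was 0.65 (SE 0.26; edgeR adjusted p = 0.512), and 0.40 without primary replicate 2. It was 1.03 (SE 0.35; edgeR adjusted p = 0.596) when graft percentage was added to the model. Graft percentage ran from 29.44% to 42.67% in recurrent and from 42.52% to 64.4% in primary tumours, so that fit separates it poorly from group. TOP2A, the topoisomerase that untangles sister chromatids, stood at 479, 581 and 552 CPM in recurrent and 438, 396 and 468 CPM in primary tumours. These groups did not overlap either, although recurrent replicate 1 and primary replicate 3 nearly met. Its log2 fold change was 0.31 (SE 0.15; edgeR adjusted p = 0.563). FOXM1, the transcription factor that drives many of the other genes in G2, stood at 143, 144 and 132 CPM in recurrent and 122, 119.6 and 131 CPM in primary tumours. The step was small, with a log2 fold change of 0.17 (SE 0.12; edgeR adjusted p = 0.665).

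All 6 genes grouped here as kinesins, proteins that act on spindle microtubules, had positive log2 fold changes, from 0.04 to 0.46, with a median of 0.35. CENPE, also a motor, is described with the kinetochore genes. Of all tested genes, 49.1% were positive. With the trend on transcript length removed, described below, the 6 values ran from 0.02 for KIF20A to 0.29 for KIF11, KIF14 and KIF23. KIF14, which works in cytokinesis with citron kinase (chromosome 1, 200551497 to 200620734, minus strand), stood at 51.1, 59.4 and 57.8 CPM in recurrent and 42.9, 32.7 and 46.5 CPM in primary tumours. The groups were apart, with a log2 fold change of 0.46 (SE 0.16; edgeR adjusted p = 0.461). KIF11, the motor that pushes the spindle poles apart (chromosome 10, 92593286 to 92655395, plus strand), stood at 112, 164 and 146 CPM in recurrent and 101, 109 and 106 CPM in primary tumours. Recurrent replicate 1 sat close to the primary tumours, and recurrent replicates 2 and 3 carried most of its log2 fold change of 0.42 (SE 0.15; edgeR adjusted p = 0.483). Under the name-prefix covariate that value was 0.09. KIF23, the midzone motor of the centralspindlin complex, stood at 106, 125 and 137 CPM in recurrent and 101, 87.1 and 105 CPM in primary tumours. Here too the groups met almost at recurrent replicate 1 (log2 fold change 0.33, SE 0.14; edgeR adjusted p = 0.530). KIF4A, a chromokinesin, stood at 125, 156 and 159 CPM in recurrent and 100.2, 108 and 132 CPM in primary tumours, where recurrent replicate 1 fell below primary replicate 3. Its log2 fold change was 0.37 (SE 0.15; edgeR adjusted p = 0.520). It was 0.65 (SE 0.20; edgeR adjusted p = 0.579) with the graft percentage and 0.14 with the name prefix in the fit. KIF4B, a near-identical intronless copy, took at most 22 counts in a tumour, against 2471 to 5359 for KIF4A. KIF2C, which depolymerises microtubules at kinetochores, and KIF20A, a cytokinesis motor, had overlapping groups, with log2 fold changes of 0.10 (SE 0.12) and 0.04 (SE 0.14).

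The 6 proteins of the spindle and of cytokinesis also all had positive values, from 0.18 to 0.51. ASPM, which focuses microtubules at the spindle poles and whose loss causes microcephaly (chromosome 1, 197084128 to 197146694, minus strand), stood at 156, 219 and 208 CPM in recurrent and 149, 114 and 145 CPM in primary tumours. Recurrent replicates 2 and 3 were clearly higher than the rest, and recurrent replicate 1 lay just above primary replicate 1. Its log2 fold change was 0.51 (SE 0.16; edgeR adjusted p = 0.454), and 0.20 under the name-prefix covariate. ANLN, the anillin scaffold of the contractile ring, stood at 239, 304 and 338 CPM in recurrent and 203, 240.2 and 224 CPM in primary tumours. Recurrent replicate 1 overlapped primary replicate 2 there (log2 fold change 0.40, SE 0.16; edgeR adjusted p = 0.512). TPX2, which activates Aurora A on the spindle, stood at 189, 202 and 215 CPM in recurrent and 179, 159 and 185 CPM in primary tumours. NUSAP1, which bundles microtubules near chromatin, stood at 179, 200.2 and 194 CPM in recurrent and 163, 178 and 164 CPM in primary tumours. Neither pair of groups overlapped, but both steps were small, with log2 fold changes of 0.22 (SE 0.13) for TPX2 and 0.18 (SE 0.12) for NUSAP1. ECT2, the exchange factor that activates RhoA at the cell equator, and PRC1, the midzone crosslinker, had overlapping groups and log2 fold changes of 0.32 (SE 0.15) and 0.23 (SE 0.13). Under the name-prefix covariate these were 0.01 for ECT2 and 0.02 for PRC1, and ECT2 stood at 0.20 without recurrent replicate 3.

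**Figure D3:**
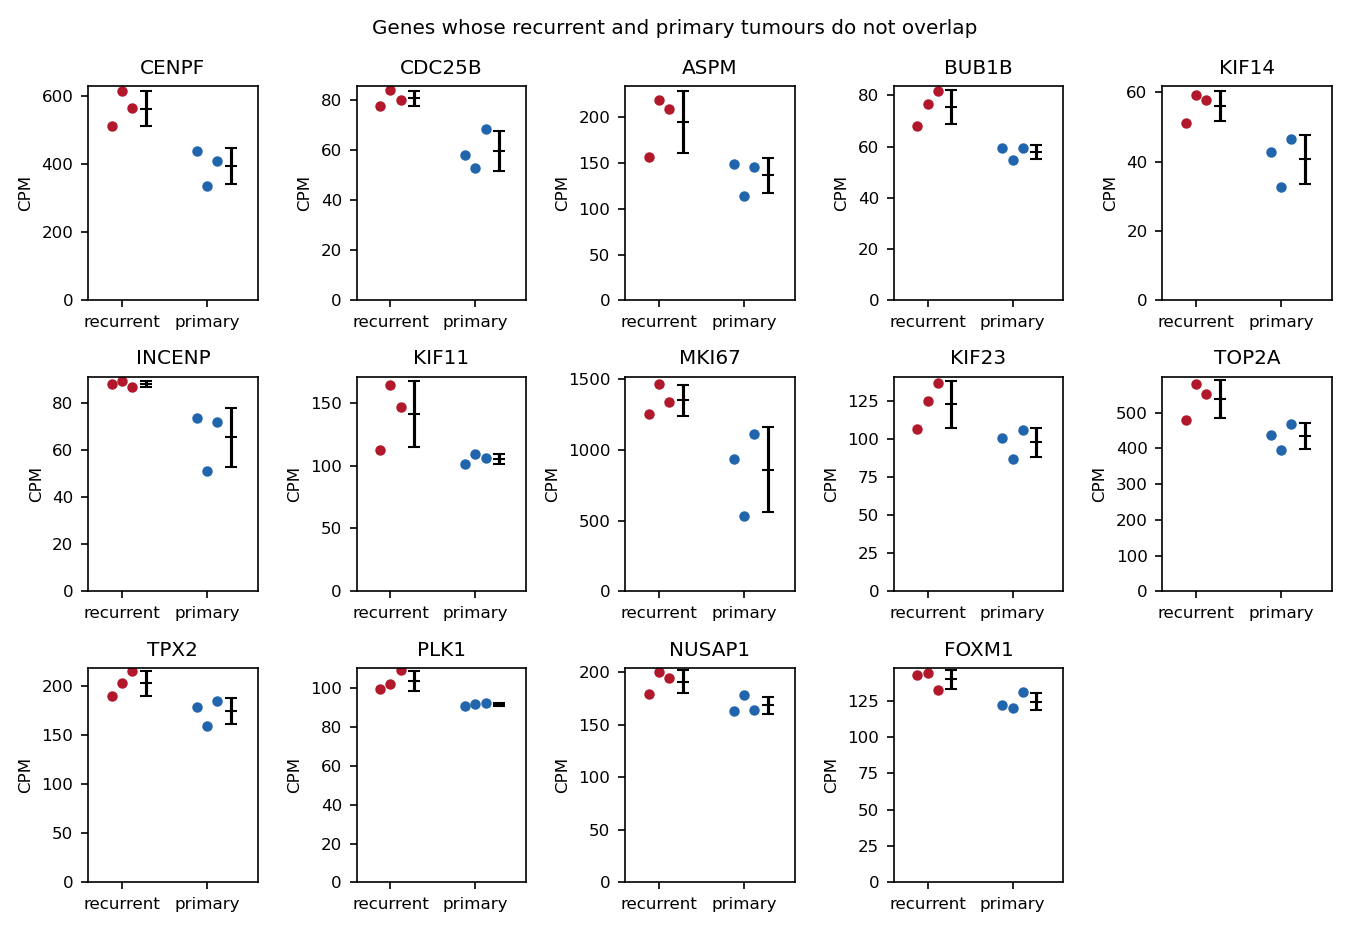
CPM of the 14 genes in which all recurrent tumours lay above all primary tumours, ordered by edgeR p. Points are single tumours, and the bar beside them gives the mean ± SD of 3. None of the 14 passed edgeR, and the gap is narrow in KIF23, NUSAP1 and FOXM1.

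At the kinetochore, 4 of 5 genes had positive values, but only CENPF had groups that did not overlap. CENPF, a large coiled-coil protein of the outer kinetochore (ENSG00000117724.15, chromosome 1, 214603195 to 214664588, plus strand), stood at 510.2, 614 and 564 CPM in recurrent and 439, 336 and 409 CPM in primary tumours. Every recurrent tumour was well above the highest primary tumour, and CENPF had the smallest edgeR p of the 40. Its log2 fold change was 0.51 (SE 0.16; edgeR adjusted p = 0.454). CENPE, a kinetochore motor, and CENPA, the centromeric histone H3 variant, had overlapping groups with log2 fold changes of 0.27 (SE 0.16) and 0.18 (SE 0.19), or -0.02 and 0.09 under the name-prefix covariate. NDC80 and NUF2, which pair in the complex that grips the microtubule, had values of 0.02 (SE 0.14) and -0.19 (SE 0.18). NUF2 stood at 21.9, 28.8 and 24.8 CPM in recurrent and 26.1, 34.6 and 25.3 CPM in primary tumours, so the groups mixed.

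In the chromosomal passenger complex, which corrects wrong attachments and steers cytokinesis, the 4 subunits did not share a direction. INCENP, the scaffold that binds and activates Aurora B (chromosome 11, 62123973 to 62153163, plus strand), stood at 88.1, 89.2 and 87.1 CPM in recurrent and 73.5, 51.1 and 71.98 CPM in primary tumours. The recurrent tumours were close to each other and above all primary tumours, with a log2 fold change of 0.43 (SE 0.15; edgeR adjusted p = 0.483), or 0.27 without primary replicate 2. BIRC5, the subunit survivin, stood at 184, 196 and 212 CPM in recurrent and 169, 294 and 189 CPM in primary tumours. Primary replicate 2 was by far the highest of the 6, and the log2 fold change was -0.14 (SE 0.20), or 0.14 without that tumour. AURKB, the kinase of the complex, and CDCA8, the subunit borealin, had overlapping groups and each a value of 0.15 (SE 0.16 for AURKB and 0.13 for CDCA8).

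Of the 5 spindle assembly checkpoint genes, BUB1B alone had groups that did not overlap. BUB1B, the pseudokinase BUBR1 of the complex that blocks CDC20 (chromosome 15, 40161023 to 40221136, plus strand), stood at 68.1, 76.8 and 81.5 CPM in recurrent and 59.3, 54.6 and 59.6 CPM in primary tumours. The lowest recurrent tumour was well above the highest primary tumour, and the log2 fold change was 0.38 (SE 0.13; edgeR adjusted p = 0.454). BUB1 and TTK, the checkpoint kinases, each had a value of 0.07 (SE 0.14 for BUB1 and 0.18 for TTK). BUB3 and MAD2L1, which bind BUB1 and CDC20, each had a value of -0.14 (SE 0.14 for BUB3 and 0.20 for MAD2L1). MAD2L1 was close in 5 tumours, from 64.2 to 78.2 CPM, and stood at 110.2 CPM in primary replicate 2.

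The cyclins and the kinase of mitotic entry had fold changes near 0. Log2 fold changes were -0.03 (SE 0.15) for CCNB1 and -0.06 (SE 0.16) for CCNB2, the B-type cyclins, -0.01 (SE 0.13) for CCNA2, cyclin A2, and 0.05 (SE 0.18) for CDK1. CDK1 ran from 59.6 to 85.5 CPM in recurrent and from 60.6 to 85.5 CPM in primary tumours, and CCNB1 from 149.7 to 173 CPM in recurrent and from 136 to 197 CPM in primary tumours. CDC25B, a phosphatase that activates CDK1 at the centrosome (chromosome 20, 3786772 to 3806121, plus strand), was the exception, at 77.9, 84.1 and 80.2 CPM in recurrent and 58.0, 53.0 and 68.7 CPM in primary tumours. Its groups were clearly apart, with a log2 fold change of 0.43 (SE 0.14; edgeR adjusted p = 0.454), and no alternative that was run moved this value by over 1.5 times. CDC25C, which acts at the same step, stood at -0.16 (SE 0.21). PLK1, the polo kinase that acts at centrosomes and kinetochores, stood at 99.4, 102 and 109 CPM in recurrent and 90.9, 92.0 and 92.1 CPM in primary tumours. The groups did not overlap, but the log2 fold change was only 0.18 (SE 0.12; edgeR adjusted p = 0.653). AURKA, the spindle pole kinase, had a value of 0.07 (SE 0.16). All 3 anaphase genes also lay close to 0: CDC20, UBE2C, the ubiquitin-conjugating enzyme of the APC/C, and PTTG1, securin, had values of 0.01, -0.09 and 0.03 (SE 0.14, 0.14 and 0.15). CDC20 stood at 131, 107 and 119 CPM in recurrent and 114, 131 and 109 CPM in primary tumours, with no order between the groups.

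Within the groups, the genes moved with particular tumours. Recurrent replicate 1 was the lowest recurrent tumour in 33 of the 40 genes, where it was the lowest recurrent tumour in 35.0% of all tested genes, and it also had the lowest graft percentage of the 6 tumours, 29.44%. Recurrent replicate 2 was the highest of the 6 tumours in 12 of the 40 genes and recurrent replicate 3 in 13, against 18.5% and 15.7% of all tested genes, and recurrent replicate 3 was the lowest of the 6 in 0 of the 40, against 16.9%. Primary replicate 1 was the lowest of the 6 in 13 of the 40, against 9.94% of all tested genes, and primary replicate 3 in 4, against 9.76%. Primary replicate 2 was the highest of the 6 in 13 and the lowest in 15 of the 40, against 27.5% and 28.7% of all tested genes. Its RNA integrity number, 7.8, was the lowest among the tumours, and its share of structural small RNAs was the largest, 14.1% against 6.04% to 12.75% in the others. The part of these features in the result was not tested beyond the fits with the graft percentage as a covariate (31 of 40 positive, median 0.20) and without primary replicate 2 (36 of 40 positive, median 0.16).

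Longer transcripts had the higher fold changes. The 20 members with an annotated length over 3051 bases had a median log2 fold change of 0.35, with 19 positive, 12 of the 14 separated genes and all 11 with an unadjusted edgeR p under 0.05. The 20 shorter members had a median of 0.02, with 12 positive. Among all tested protein-coding genes, the 5263 longer ones had a median of 0.10 and the 7735 shorter ones -0.08. Of the longer coding genes 3491 were positive, 701 were separated with recurrent above primary, and 464 were higher at an unadjusted edgeR p under 0.05. Of the shorter coding genes these counts were 2931, 383 and 238. Primary replicate 2 was the tumour in which the difference by length was strongest: it deviated from the 6-tumour mean by a median of -0.26 on the log2 scale in the longer members and 0.16 in the shorter ones, and by -0.22 and 0.12 in all coding genes split at the same length. With a trend on length removed from each tumour, an alternative chosen after seeing the data, the medians were 0.27 and 0.11 for the longer and shorter members and 0.00 for all coding genes of either length. Under it 34 of the 40 values were positive, 9 had an unadjusted edgeR p under 0.05 and 0 passed after adjustment. Of all coding genes, 2652 of the 5263 longer and 3862 of the 7735 shorter ones were positive under it. At an unadjusted edgeR p under 0.05, 311 of the longer and 378 of the shorter coding genes were higher. MKI67 then stood at 0.43, KIF14 at 0.29 and TOP2A at 0.16, while UBE2C turned to 0.11. The differences between roles described above come from the fit without this step, so role and length are not separated there. Lengths are medians over the annotated coding transcripts, and that of MAD2L1, 5468 bases, rests on which transcripts the annotation lists.

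**Figure D4:**
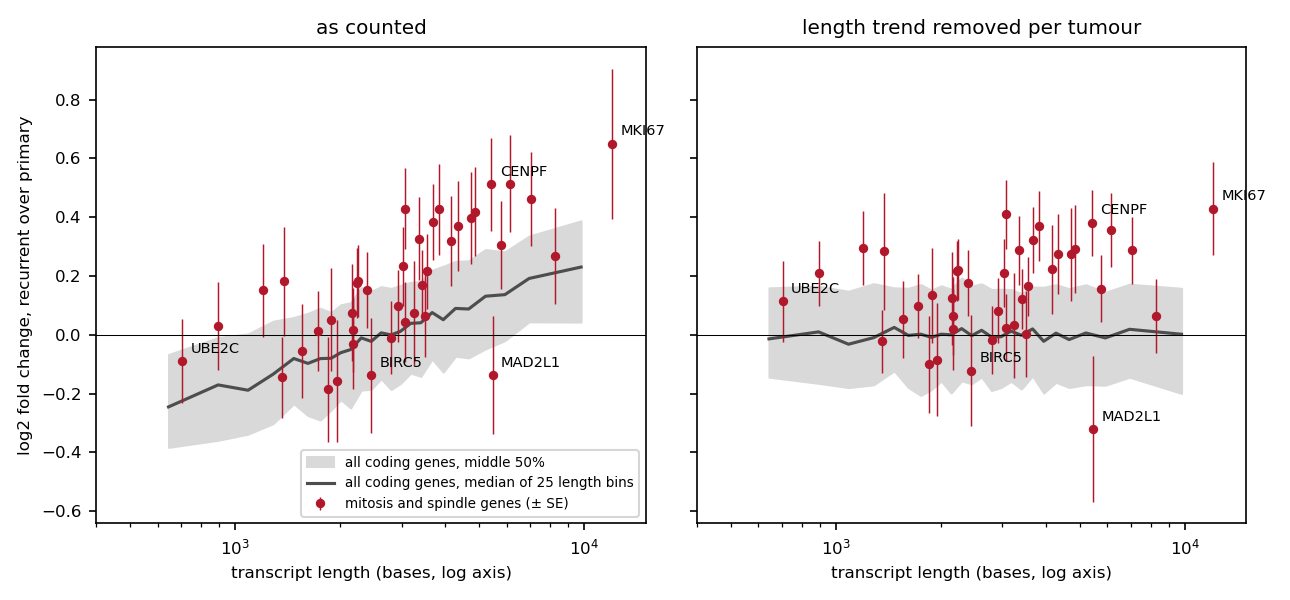
Log2 fold change of recurrent over primary tumours against transcript length (log axis) for the 40 genes (red, ± SE) and for all tested protein-coding genes (grey line, median in 25 length bins; band, the middle 50%), as counted on the left and with a length trend removed from each tumour on the right. The grey line climbs with length on the left and is flat on the right, where most red points still lie above 0.

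The other genes of cell division showed a mixed picture. Of 122 genes in 7 further lists, which were not split by transcript length, 119 were tested and 0 passed edgeR. Positive log2 fold changes were found in 75 of the 119, against 49.1% of all tested genes. At an unadjusted p under 0.05 edgeR had 12 of the 119 above and 4 below, against the 5.08% and 4.20% of all tested genes given above. Condensin and cohesin genes, which compact chromosomes and hold sisters together, were positive in 16 of 16 (median 0.22). Among them ESPL1, the protease separase that cuts cohesin, stood at 20.2, 21.6 and 22.3 CPM in recurrent and 16.5, 12.9 and 16.1 CPM in primary tumours (log2 fold change 0.49, SE 0.17; edgeR adjusted p = 0.473). NCAPD3, a condensin II subunit, had a value of 0.40 (SE 0.14; edgeR adjusted p = 0.470). Further kinetochore and checkpoint genes were positive in 11 of 26 (median -0.01), with the checkpoint scaffold KNL1 at 0.50 (SE 0.17) and the centromere protein CENPI at 0.51 (SE 0.23). Further spindle, centrosome and cytokinesis genes were positive in 18 of 23 (median 0.10), with citron kinase (CIT), the partner of KIF14, at 0.43 (SE 0.17) and the abscission protein CEP55 at 0.28 (SE 0.15). APC/C subunits were positive in 5 of 13 (median -0.11), with ANAPC1 at 0.29 (SE 0.16) and CDC26 at -0.36 (SE 0.22).

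Upstream, DREAM and MuvB genes were positive in 10 of 16 (median 0.11), with TFDP2, a dimer partner of E2F factors, at 0.51 (SE 0.15) and the repressor E2F7 at 0.44 (SE 0.17). Genes of the G1/S transition and of replication were positive in 13 of 20 (median 0.07). CCND1, cyclin D1, stood at 239, 234 and 280 CPM in recurrent and 209, 144 and 146 CPM in primary tumours, with the groups apart (log2 fold change 0.59, SE 0.17; edgeR adjusted p = 0.401). GMNN, geminin, which blocks a second round of replication, ran the other way, at 32.5, 34.7 and 35.6 CPM in recurrent and 40.6, 51.4 and 43.8 CPM in primary tumours (-0.40, SE 0.14; edgeR adjusted p = 0.483). Of 8 CDK inhibitors, 5 were tested. CDKN2A and CDKN2B were at 0 in all 6 tumours, and CDKN2C was too low to test. CDKN1A, p21, a target of p53 that stops CDKs, stood at 13.0, 15.5 and 19.4 CPM in recurrent and 11.2, 9.84 and 8.67 CPM in primary tumours (0.69, SE 0.21; edgeR adjusted p = 0.454). CDKN1B, p27, had a value of -0.30 (SE 0.13; edgeR adjusted p = 0.530).

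Set side by side per length, the 40 genes spanned over 10-fold in the tumours. The lengths are medians over the annotated coding transcripts and not of the transcripts present, so these levels and their order rest on the annotation. The highest mean levels over the 6 tumours were 92.0 CPM per kilobase for MKI67, 88.4 for CENPF, 84.8 for BIRC5, 84.4 for TOP2A and 80.1 for NUSAP1. Whether these neighbours differed from each other was not tested. The coefficient of variation over the tumours was 30.3% for MKI67 and 21.6% for CENPF, and it does not cover error in the lengths. UBE2C followed at 75.8 and CCNB1 at 74.8 CPM per kilobase. The lowest were 6.86 for KIF14, 7.88 for CDC25C, 10.1 for TTK and 10.2 for CENPA. Between tumours the genes varied about as much as others. The median coefficient of variation was 14.3%, against 14.8% over the 9613 tested genes with a mean of 10 CPM or more. The highest tumour exceeded the lowest by 1.16-fold for CCNA2, the steadiest, and by 2.75-fold for MKI67, the most variable.

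The tumours held all 40 genes within 2-fold of the culture on average. No gene of the 40 met the rule of a 2-fold difference of the mean over 6 tumours from the culture with all tumours on one side, where 10.5% of 13768 genes did, 4.26% as higher and 6.24% as lower. With 1 culture library there is no test. Log2 differences of tumours minus culture ran from -0.94 to 0.80 with a median of -0.15, against 0.00 over all genes. The median size of the difference was 0.25 for the 40 and 0.35 for all genes. All 6 tumours lay above the culture in 7 of the 40 (27.0% of all genes) and below it in 13 (27.5% of all genes).

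CDC20 was furthest above the culture, at 108 to 135 CPM in the tumours and 68.1 CPM in the culture (log2 difference 0.80). BIRC5 ran from 170.4 to 302 CPM in the tumours, against 136 CPM in the culture (0.60). PLK1 ran from 91.5 to 109.6 CPM in the tumours, against 68.5 CPM in the culture, and KIF4A from 101 to 159 CPM in the tumours, against 89.6 CPM in the culture (0.52 each). In these 4 genes every tumour was above the culture. On the other side, CDC25B ran from 54.5 to 84.8 CPM in the tumours, against 134 CPM in the culture (-0.94), and with library totals in place of TMM scaling it was past 2-fold. KIF14 ran from 33.6 to 59.9 CPM in the tumours, against 72.05 CPM in the culture (-0.59). ASPM ran from 117 to 220.5 CPM in the tumours, against 241 CPM in the culture (-0.57), and NUF2 from 21.9 to 35.5 CPM in the tumours, against 38.9 CPM in the culture (-0.53). In these 4 every tumour was below the culture, though the recurrent tumours came closer to it in CDC25B, KIF14 and ASPM than the primary tumours did. MKI67 averaged 1114 ± 333 CPM in the tumours (SD, n = 6) and stood at 1114 CPM in the culture, inside the range of the tumours. That average pools unlike groups: scaled over the 6 tumours alone, the mean was 1354 CPM in recurrent and 863 CPM in primary tumours. Of 4 ratios between partner genes, 2 lay above the culture in all 6 tumours: CCNB1 stood at 1.78 to 2.20 times CCNB2 in the tumours and 1.39 times in the culture, and CDC20 at 1.95 to 2.91 times UBE2C in the tumours and 1.32 times in the culture. The other 2 ratios did not. NDC80 stood at 1.81 to 2.74 times NUF2 in the tumours and 1.83 times in the culture. BUB1 stood at 1.096 to 1.36 times BUB3 in the tumours and 1.15 times in the culture. How often ratios of other gene pairs lie wholly above the culture was not counted.

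**Figure D5:**
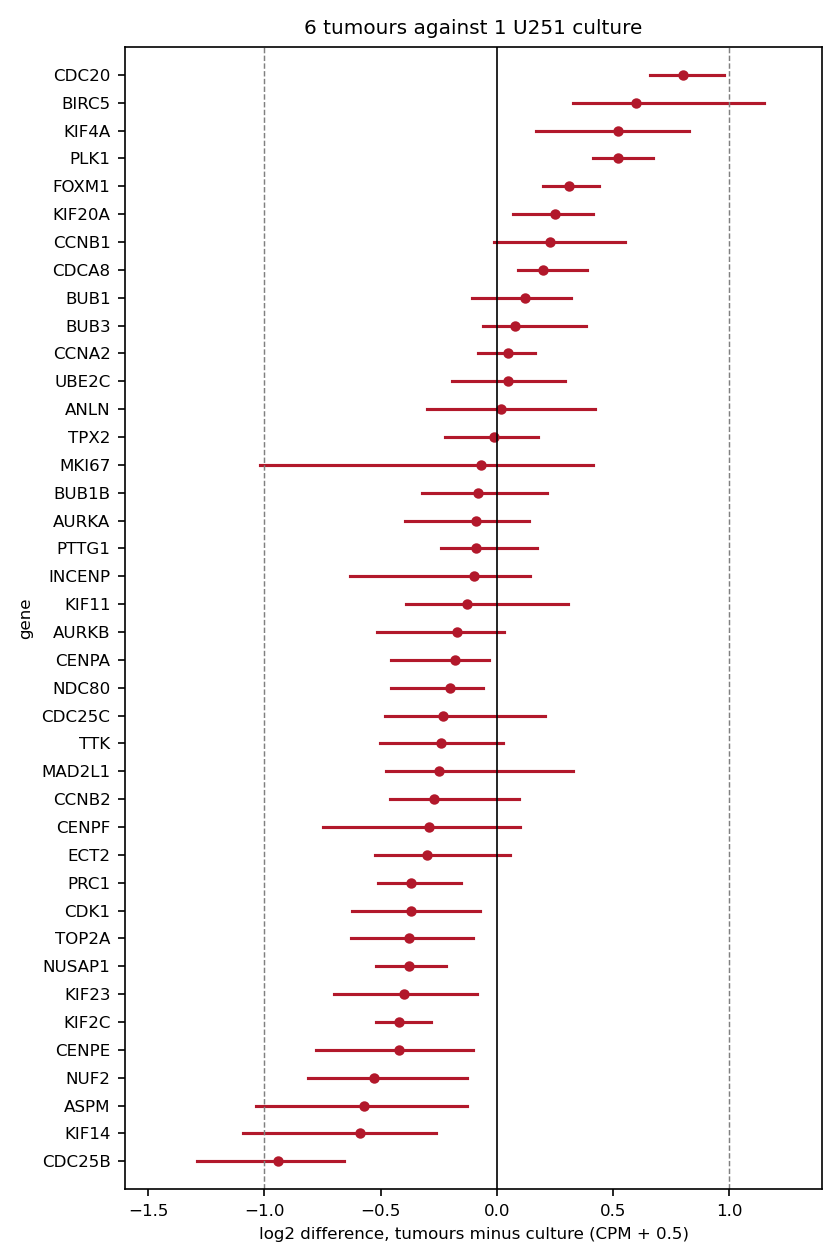
Log2 difference of the 6 tumours from the 1 culture for each of the 40 genes (CPM + 0.5). Points give the mean over the tumours, lines run from the lowest to the highest tumour, and dashed lines mark 2-fold. All 40 points lie between the dashed lines, from CDC25B at -0.94 to CDC20 at 0.80.

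The tumour-free controls held few counts of these genes, and those they held differed by library. The 40 genes summed to 116051 to 178382 counts in recurrent tumours, 118013 to 224850 in primary tumours, and 119, 816 and 18382 in control replicates 1, 2 and 3. As a share of counts outside structural small RNAs this was 0.118% (Wilson 95% interval 0.0988 to 0.141), 0.464% (0.433 to 0.497) and 0.643% (0.634 to 0.653) in control replicates 1, 2 and 3, so control replicate 3 lay inside the range of the tumours. Its graft percentage, 4.9%, was also the highest of the controls. In control replicate 1, 12 of the 40 genes had no count, and a count of 0 there allows up to 2.21 CPM of the library total. Structural small RNAs made up 92.59%, 89.67% and 31.29% of control replicates 1, 2 and 3. Outside them control replicate 1 had 100721 counts, so 1 count of CENPE was 9.93 CPM on that scale. CENPA stood at 12.2 to 17.1 CPM in the tumours on the same scale. A count of 0 in control replicate 1 therefore does not show absence. In control replicate 2 only AURKA had none, and in control replicate 3 all 40 had over 3 counts. MKI67 had 20, 165 and 4950 counts in control replicates 1, 2 and 3, and TOP2A had 9, 58 and 1347. Lists named for host cells, which had counts in the culture too, also had counts in the controls. The 5 oligodendrocyte markers summed to 383, 211 and 201 counts and the 6 neuron markers to 505, 375 and 2560 in control replicates 1, 2 and 3. The 8 glioma line markers summed to 135, 866 and 26663 there. Whether the mitotic counts in the controls came from human or from rat RNA was not tested.

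With all 3 controls, edgeR called 0 of the 40 between tumours and controls (adjusted p from 0.080 to 0.959), where 0.889% of 16417 genes passed as higher and 5.62% as lower. At an unadjusted p under 0.05 it had 4 of the 40 higher and 0 lower, against 10.0% and 9.64% of all genes, and DESeq2 called 0, with 5 higher at that level. The fold change was positive in 37 of the 40, where 67.2% of all genes were, with a median of 0.62 against 0.41 over all genes. PLK1 was nearest to passing, with a log2 fold change of 1.22 (SE 0.37; edgeR adjusted p = 0.080). Without control replicate 3, 11 of the 40 were called higher, against 11.1% of all genes. AURKA was among them, but both remaining controls had no count of it, so no fold is given. The others included PLK1 (2.06, SE 0.33; edgeR adjusted p = 0.000936), UBE2C (2.77, SE 0.53; edgeR adjusted p = 0.00345), CCNB2 (1.61, SE 0.36; edgeR adjusted p = 0.00884) and CENPE (1.78, SE 0.44; edgeR adjusted p = 0.0146). These folds rest on few counts in control replicates 1 and 2. The counts were 2 and 4 for PLK1, 1 and 1 for UBE2C, 2 and 5 for CCNB2, and 1 and 7 for CENPE. Each library was scaled to its own TMM-adjusted total, so this comparison concerns the make-up of the counted reads and not their amount.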

How the data were processed

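The authors deposited 1 table of estimated counts per gene for 10 libraries. Per the labels' protocols, RNA from tissue dissected out of frozen slices went into strand-specific, ribosomal-RNA-depleted libraries read as pairs. The submitters' processing notes name GRCh38 and the programs Salmon 1.10.3, STAR and DESeq2 without their roles, and per the labels xengsort gave the graft percentages. Sources used here do not give the annotation release or which read classes entered the counts.

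Counts were rounded and tested with edgeR 4.0.16 in R 4.3.3 (TMM, default low-count filter, glmQLFit with legacy=FALSE, two-sided quasi-likelihood F test, Benjamini-Hochberg over all tested genes, threshold 0.05), and checked on simulated data. The SE is the fold change divided by the square root of F. DESeq2 1.42.0 and limma 3.58.1 were alternatives. CPM of tumours refers to TMM-scaled totals of the 6 tumours, and in the culture comparison to those of the 7 libraries, with 0.5 CPM added before logs. The length trend was fitted per tumour by lowess over coding genes. Structural small RNAs are 7565 genes by type or name, and types, lengths and coordinates came from GENCODE 29 (58261 IDs matched). Limits and intervals cover counting error only. Values in every tumour are given for genes whose groups do not overlap, the 8 smallest p, MKI67, TOP2A and the 4 furthest above and the 4 furthest below the culture, other lists are named by their 2 smallest p, and a few others were named after their values were seen. The members and lists were chosen with earlier results of these data known.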

Additional observations from a re-analysis of the deposited data

How the results depend on the processing

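No alternative called any of the 40 genes between recurrent and primary tumours, including the fits without each tumour, and the median stayed positive, from 0.13 to 0.20 with a tumour left out. With a tumour left out the positive values numbered 25 to 36 and those with an unadjusted edgeR p under 0.05 3 to 15. Under the name-prefix covariate that count was 0 and the median 0.09. Of 640 values of single genes under 16 alternatives, 52 changed sign, in 18 genes, most with a fold change near 0. With the graft percentage as a covariate CCNB1 turned to 0.02, CCNA2 to 0.03, CDC20 to -0.16 and PTTG1 to -0.11. With the name prefix CDK1 turned to -0.23, AURKA to -0.28, BUB1 to -0.06, TTK to -0.24, CENPE to -0.02 and NDC80 to -0.25. With the length trend removed CCNB1 turned to 0.02, CCNB2 to 0.05 and UBE2C to 0.11. With that and without primary replicate 2, CCNB1 turned to 0.16, CCNB2 to 0.16, CCNA2 to 0.05, CDC25C to 0.07, BUB3 to 0.00, MAD2L1 to 0.12, BIRC5 to 0.17, NUF2 to 0.01, KIF20A to -0.03 and UBE2C to 0.04. With 1 tumour left out, values ran from -0.15 to 0.12 for CCNB1 and CCNB2, -0.05 to 0.04 for CCNA2, -0.10 to 0.22 for CDK1, -0.31 to 0.03 for CDC25C, -0.04 to 0.22 for AURKA, -0.03 to 0.17 for BUB1, -0.27 to 0.16 for MAD2L1, -0.06 to 0.20 for TTK, -0.29 to 0.14 for BIRC5, -0.07 to 0.13 for NDC80, -0.05 to 0.15 for KIF20A, -0.07 to 0.09 for CDC20 and -0.04 to 0.16 for PTTG1. Against the controls, the median was 0.36 by DESeq2 and 0.39 to 0.94 with 1 library left out, with 0 to 11 genes called and 3 to 18 higher at an unadjusted p under 0.05. Against the culture, library totals gave 1 gene past 2-fold and a median of -0.23, and leaving out 1 tumour gave -0.20 to -0.10. The cause of these changes was not tested. No paired analysis was possible because the labels carry no replicate numbers.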
